A study of Oryza sativa Japonica Group with 6 samples.

Results

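The SPL genes (SQUAMOSA promoter binding protein-like) whose transcripts are targets of the microRNA miR156 were compared between seedlings of the rice mutant osino80 and wild-type (WT) seedlings. The 10 genes were taken by their locus numbers, SPL2 (LOC_Os01g69830), SPL3 (LOC_Os02g04680), SPL4 (LOC_Os02g07780), SPL7 (LOC_Os04g46580), SPL11 (LOC_Os06g45310), SPL12 (LOC_Os06g49010), SPL13 (LOC_Os07g32170), SPL14 (LOC_Os08g39890), SPL16 (LOC_Os08g41940) and SPL17 (LOC_Os09g31438). They are 10 of the 55801 loci in the deposited tables, and all 10 were among the 24914 loci with enough counts to be tested. Both groups were Oryza sativa cultivar Nipponbare, untreated, 14 days old and grown in chambers under an SD photoperiod. One group carried the allele osino80-2 of OsINO80, and the other was wild type. OsINO80 encodes the motor subunit of a chromatin remodeller that moves nucleosomes. Each group had 3 libraries of seedling RNA. The labels do not say what kind of lesion osino80-2 is. They also do not tie the libraries to separate plants, so the p-values rest on a spread between libraries that may be technical.

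SPL proteins are plant transcription factors that bind DNA through the SBP domain and recognise a GTAC core. Part of the family carries a site complementary to miR156, which cleaves or silences the transcripts. In young plants miR156 is abundant and holds these SPL genes down; as it declines with age, SPL levels rise and the plant passes from its juvenile to its adult phase. In rice the same genes are known for their effects on tiller number, panicle branching and grain shape.

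Total counts ran from 61426662 to 73293481 per library, and the transcript of OsINO80 (taken as LOC_Os03g22900) averaged 60.6 ± 0.606 CPM (counts per 1000000) in osino80 and 119 ± 2.43 CPM in WT (SD, n = 3 each). CPM values are scaled between libraries by TMM. The labelled tissue is seedlings, and the libraries were rich in leaf transcripts. The 5 green leaf markers together made up 40419 to 41704 CPM in osino80 and 40454 to 41268 CPM in WT. Single markers moved in both directions, and 4 of the 5 passed (edgeR adjusted p under 0.05), against 37.6% of all loci tested. RBCS2, RBCS3 and RBCS4 fell, by -0.09, -0.05 and -0.09 on the log2 scale. CAB2R rose by 0.17, and CAB1R did not pass. The 4 root markers summed to 20.5 to 21.3 CPM in osino80 and 16.2 to 17.2 CPM in WT, nearly all of it the silicon transporter gene Lsi1, which rose by 0.35 ± 0.07 on the log2 scale (edgeR adjusted p = 9.77e-07). RCc3 and PIP2.5 did not pass, and Lsi2 had 0 counts in osino80, against 12, 14 and 8 counts in WT; the part of root tissue in the differences below was not tested. The 5 KNOX genes that mark the shoot meristem summed to 0.322 to 0.784 CPM in osino80 and 0.383 to 0.850 CPM in WT, with OSH1 and OSH6 at 0 counts in all 6 libraries. Fewer cells expressing a gene and less RNA per cell cannot be told apart in such bulk RNA.

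Of the miR156-targeted SPL genes SPL2 and SPL12 rose in osino80 by 1.21-fold and 1.14-fold, SPL4 fell to 0.831 of its WT level, and 7 members did not pass the test. The share called, 3 of 10, was near that of all loci tested, 37.6% (edgeR's quasi-likelihood test with Benjamini-Hochberg adjustment over all loci, threshold 0.05). Among all loci tested 18.4% were called higher and 19.1% lower. The median log2 fold change of the 10 genes was -0.17, against 0.00 over all loci tested. It lay between SPL7 and SPL17, at -0.18 ± 0.60 and -0.17 ± 0.29 (SE), which did not pass. A shift of the 10 genes as a set was not tested. Their median absolute log2 fold change was 0.21, against 0.16 over all loci tested. Past the test with a change of at least 1.5-fold were 0 of the 10, against 7.32% of all loci tested. The groups did not overlap in CPM in 5 of the 10 genes, against 45.7% of all loci tested, and in TPM in 4 of the 10, against 43.7%. The plot of fold changes shows these values with their intervals.

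**Figure D1:**
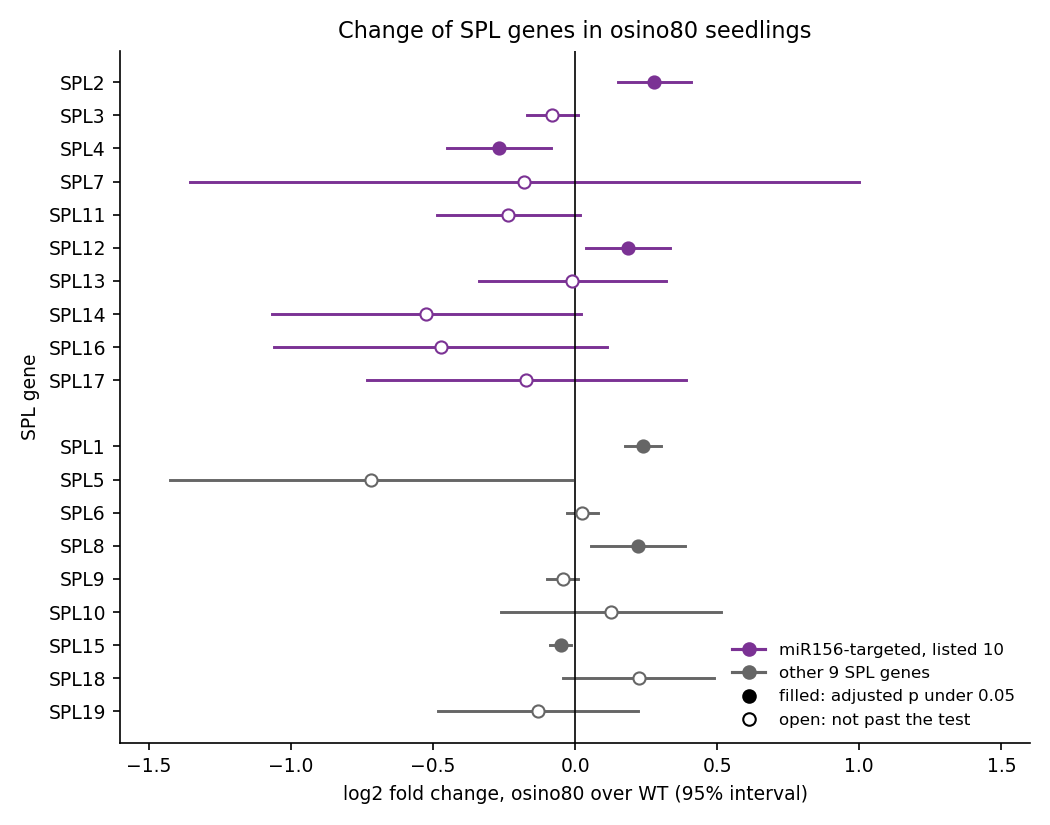
The horizontal axis gives the log2 fold change of osino80 over WT with its 95% interval from edgeR, for the 10 listed miR156-targeted SPL genes (purple) and the other 9 SPL genes (grey); filled points passed at an adjusted p under 0.05. In each set 2 genes passed as higher and 1 as lower, and the widest interval, that of SPL7, ran from 0.391 to 2.00 times the WT level.

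The levels of the members spanned 2 orders of magnitude when compared per length, in the authors' TPM (transcripts per 1000000). SPL3 was the most abundant, at 20.2 ± 0.874 TPM in osino80 and 21.5 ± 0.553 TPM in WT (SD, n = 3 each, as for all means below). SPL2 came next with 14.6 ± 0.899 TPM in osino80 and 11.9 ± 0.166 TPM in WT, then SPL12 with 8.44 ± 0.519 TPM in osino80 and 7.15 ± 0.251 TPM in WT. These 3 genes stood apart from each other and from the rest in every library. SPL11 had 4.83 ± 0.949 TPM in osino80 and 5.72 ± 0.550 TPM in WT. SPL4 had 4.19 ± 0.104 TPM in osino80 and 4.88 ± 0.258 TPM in WT; its libraries overlapped with those of SPL11 in osino80 but not in WT. SPL13 followed with 2.57 ± 0.203 TPM in osino80 and 2.58 ± 0.520 TPM in WT.

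The genes best known for shoot branching and grain width were the least abundant members. SPL17 had 1.01 ± 0.201 TPM in osino80 and 1.07 ± 0.145 TPM in WT. SPL14 had 0.802 ± 0.0270 TPM in osino80 and 1.13 ± 0.0797 TPM in WT. In WT the libraries of these 2 genes overlapped; in osino80 SPL17 was above SPL14 by a narrow margin, its lowest library at 0.836 TPM against the highest of SPL14 at 0.833 TPM. SPL16 had 0.577 ± 0.0569 TPM in osino80 and 0.794 ± 0.200 TPM in WT, where it overlapped with SPL17. SPL7 was the lowest, at 0.163 ± 0.0435 TPM in osino80 and 0.203 ± 0.108 TPM in WT.

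**Figure D2:**
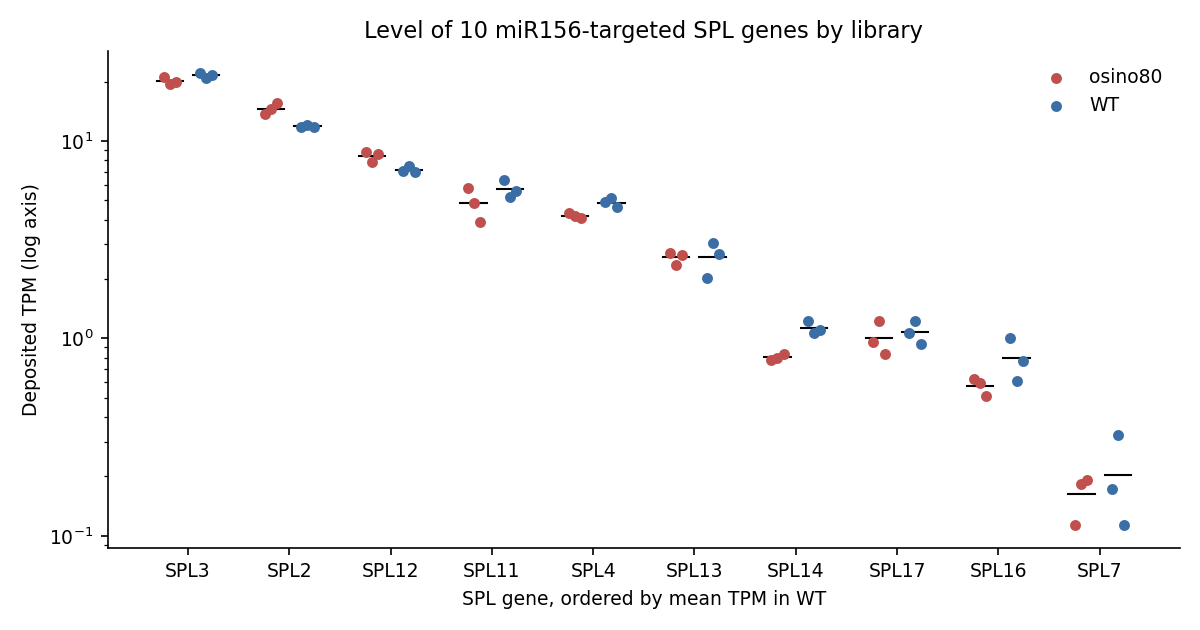
Deposited TPM of each member on a log axis, with 1 point per library, osino80 in red to the left of WT in blue, and black bars for the means of 3 libraries. SPL3 lies near 20 TPM in both genotypes, SPL7 lies under 0.33 TPM in every library, and the osino80 points lie wholly above the WT points for SPL2 and SPL12 and wholly below them for SPL4 and SPL14.

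Summed over the 10 genes, transcript levels did not separate the genotypes. The sum was 59.0, 56.1 and 57.1 TPM in the osino80 libraries and 57.6, 57.1 and 56.1 TPM in the WT libraries, so the groups overlapped. The shares of some genes in that sum differed between the groups, which was not tested. SPL2 made up 23.2%, 26.0% and 27.2% of it in osino80, against 20.5%, 21.2% and 21.0% in WT. SPL12 made up 14.7% ± 0.617 in osino80 and 12.6% ± 0.416 in WT. SPL3 made up 35.2% ± 0.619 in osino80 and 37.8% ± 0.971 in WT, and here too the libraries did not overlap. Shares of a fixed whole are tied to each other, so that a larger share of SPL2 lowers the others. The 3 most abundant genes held 74.1% to 77.2% of the sum in osino80 and 70.9% to 71.9% in WT, and the 4 least abundant held 4.16% to 4.99% in osino80 and 5.20% to 6.02% in WT.

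**Figure D3:**
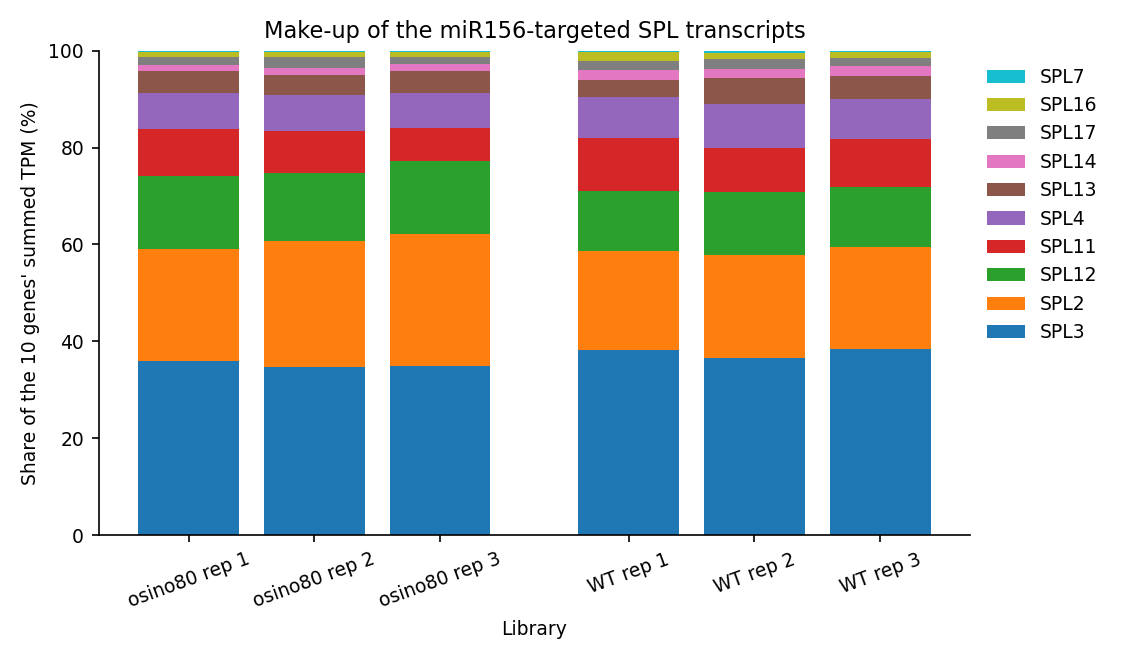
Stacked bars give the share in percent of each of the 10 genes in their summed TPM, for the 3 osino80 libraries on the left and the 3 WT libraries on the right. The orange part, SPL2, averages 25.5% in osino80 and 20.9% in WT, and SPL7, SPL16, SPL17 and SPL14 form the thin top layers.

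SPL2 and SPL12 were the members that rose. SPL2 had 18.3, 19.7 and 20.9 CPM in osino80, against 16.1, 16.0 and 16.5 CPM in WT. All osino80 libraries lay above all WT libraries, and the osino80 libraries were spread more widely. The log2 fold change was 0.28 ± 0.07 (SE, edgeR adjusted p = 0.000131), and it stayed past the threshold in each of 17 alternative treatments of the data. SPL12 had 15.1, 13.3 and 14.4 CPM in osino80, against 12.3, 12.8 and 12.5 CPM in WT. The groups again did not overlap, but the lowest osino80 library was close to the highest WT library. The log2 fold change of SPL12 was 0.19 ± 0.07 (edgeR adjusted p = 0.0365). This call was lost without osino80 replicate 1 (edgeR adjusted p = 0.183), osino80 replicate 3 (0.0916), WT replicate 1 (0.103), WT replicate 2 (0.0539) or WT replicate 3 (0.0733). The TPM analyses and the analysis without the low-count filter did not call it either; over all alternatives the adjusted p lay between 0.0229 and 0.183.

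SPL12 has a close duplicate, SPL3, which in rice acts in crown root development. SPL3 had 35.7, 32.8 and 33.5 CPM in osino80, against 36.6, 35.5 and 35.8 CPM in WT. The highest osino80 library lay within the WT range, and the log2 fold change of -0.08 ± 0.05 did not pass (edgeR adjusted p = 0.163). Its 95% interval ran from 0.889 to 1.01 times the WT level. The TPM ratio of SPL12 to SPL3 was 0.417, 0.402 and 0.434 in osino80, against 0.320, 0.356 and 0.323 in WT, without overlap between the groups. This ratio was looked at after the values of both genes were seen and was not tested. Among the other pairs compared, the ratio of SPL18 to SPL16 was 7.60 ± 0.810 in osino80 and 4.86 ± 0.970 in WT, without overlap. For SPL2 to SPL19 it was 5.64 ± 0.832 in osino80 and 4.07 ± 0.612 in WT, without overlap. The ratios of SPL17 to SPL14 and of SPL11 to SPL4 overlapped. Of single loci tested 43.7% did not overlap in TPM, and the share among ratios of other gene pairs was not computed.

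SPL4, a regulator of grain size, was the member that fell. It had 8.19, 7.59 and 7.82 CPM in osino80, against 9.40, 9.83 and 9.19 CPM in WT. Every osino80 library lay below every WT library, and the log2 fold change was -0.27 ± 0.09 (edgeR adjusted p = 0.0137). The call was lost without osino80 replicate 2 (edgeR adjusted p = 0.0583), without WT replicate 2 (0.0638) and on TPM (0.156 and 0.158 with pseudocounts of 1 and 0.1); over all alternatives the adjusted p lay between 0.0119 and 0.158. SPL11, the duplicate of SPL4, had 4.71, 4.43 and 3.63 CPM in osino80, against 5.53, 4.55 and 4.94 CPM in WT. Its groups overlapped through osino80 replicate 1 and WT replicate 2, and the log2 fold change of -0.24 ± 0.13 did not pass (edgeR adjusted p = 0.141). The TPM ratio of SPL11 to SPL4 averaged 1.15 ± 0.198 in osino80 and 1.18 ± 0.137 in WT.

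SPL14, SPL17 and SPL7 restrain tillering and promote panicle branching. SPL14, also called IPA1 or WFP, is the member best known to breeders through alleles that escape miR156. It had 54, 46 and 54 counts in osino80, against 91, 75 and 71 counts in WT. On the CPM scale these were 0.867, 0.741 and 0.814 in osino80, and 1.25, 1.08 and 1.16 in WT. All osino80 libraries lay below all WT libraries, in CPM and in TPM. The log2 fold change of -0.52 ± 0.28 did not pass (edgeR adjusted p = 0.128, with 0.0750 to 0.271 over the alternatives), and its 95% interval ran from -1.07 to 0.02. A fall to 0.477 of the WT level and a rise to 1.01 times that level both lie within this interval.

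SPL17, the duplicate of SPL14, had 54, 62 and 49 counts in osino80, against 62, 80 and 57 counts in WT. The groups overlapped, and the log2 fold change of -0.17 ± 0.29 did not pass (edgeR adjusted p = 0.685), with an interval of -0.73 to 0.39. SPL7 had 6, 11 and 16 counts in osino80, against 12, 20 and 8 counts in WT. The groups overlapped widely, and the log2 fold change was -0.18 ± 0.60 (edgeR adjusted p = 0.850). Its sign turned to 0.10 without osino80 replicate 1 and to 0.21 without WT replicate 2. Its 95% interval ran from 0.391 to 2.00 times the WT level, a range that holds both falls and rises.

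SPL13 and SPL16 are known from grain shape, SPL13 as GLW7 from grain length and SPL16 as GW8 from grain width. SPL13 had 2.68, 2.27 and 2.61 CPM in osino80, against 2.07, 2.99 and 2.57 CPM in WT. The osino80 libraries lay inside the WT range, and the log2 fold change was -0.01 ± 0.17 (edgeR adjusted p = 0.970, 95% interval -0.34 to 0.32). SPL16 had 53, 48 and 36 counts in osino80, against 87, 61 and 57 counts in WT. In CPM the osino80 libraries, at 0.851, 0.773 and 0.543, lay below the WT libraries at 1.19, 0.878 and 0.932. In TPM they overlapped, and the log2 fold change of -0.47 ± 0.30 did not pass (edgeR adjusted p = 0.214, 95% interval -1.06 to 0.11).

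**Figure D4:**
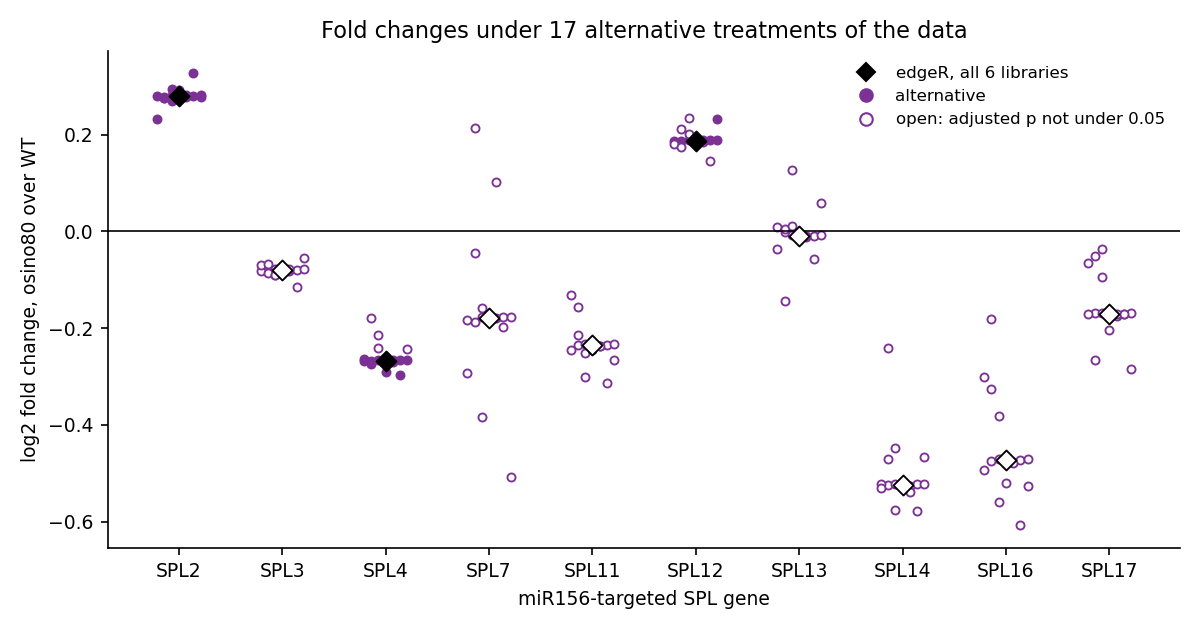
Each column is a member and the vertical axis gives its log2 fold change of osino80 over WT; diamonds are edgeR on all 6 libraries, circles the 17 alternatives (16 for SPL7), and filled symbols have an adjusted p under 0.05. SPL2 is filled throughout, SPL4 and SPL12 are filled in part, SPL7 and SPL13 have symbols on both sides of 0, and SPL14 stays between -0.58 and -0.24 with every symbol open.

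Of the other 9 SPL genes in rice 2 rose and 1 fell, so that 3 of 9 were called, near the 37.6% of all loci tested. Their median log2 fold change was 0.02. SPL1 had 83.3, 78.5 and 81.0 CPM in osino80, against 69.3, 70.3 and 66.1 CPM in WT. It rose by 0.24 ± 0.03 on the log2 scale (edgeR adjusted p = 5.51e-12), with all osino80 libraries above all WT libraries. SPL8, the rice LIGULELESS1 gene needed for the ligule, had 12.0, 11.7 and 10.1 CPM in osino80, against 9.59, 9.57 and 9.83 CPM in WT. It rose by 0.22 ± 0.08 on the log2 scale (edgeR adjusted p = 0.0269). SPL8 lost this call without osino80 replicate 1 (edgeR adjusted p = 0.150), osino80 replicate 2 (0.122), WT replicate 1 (0.0697) or WT replicate 2 (0.0705), in a range of 0.00922 to 0.150.

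SPL15, the most abundant SPL gene of all, averaged 107 TPM in osino80 and 111 TPM in WT. It fell to 322 ± 5.60 CPM in osino80, against 334 ± 4.43 CPM in WT (edgeR adjusted p = 0.0231). The call was lost without osino80 replicate 2 (edgeR adjusted p = 0.175), WT replicate 1 (0.0654) or WT replicate 3 (0.0999). It was also absent from the TPM analyses, and the alternatives spanned 0.0109 to 0.175. SPL18 (LOC_Os09g32944) is also a published miR156 target in rice, although it is not among the 10. It had 4.72, 4.09 and 4.19 CPM in osino80, against 3.79, 3.71 and 3.63 CPM in WT. Its groups did not overlap in CPM but did in TPM, with osino80 replicate 2 at 4.03 TPM and WT replicate 1 at 4.11 TPM. Its log2 fold change of 0.22 ± 0.13 did not pass (edgeR adjusted p = 0.193). With SPL18 counted, 3 of 11 published targets passed, against 37.6% of all loci tested. SPL5 had 18, 32 and 40 counts in osino80, against 49, 54 and 54 counts in WT, and its log2 fold change of -0.72 ± 0.36 did not pass (edgeR adjusted p = 0.106).

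Of 6 listed genes that make and use miRNAs 1 rose and none fell, against 18.4% higher and 19.1% lower among all loci tested. AGO1c, an Argonaute that carries miRNAs to their targets, had 47.5 ± 0.663 CPM in osino80 and 43.0 ± 3.03 CPM in WT. It rose by 0.15 ± 0.04 on the log2 scale (edgeR adjusted p = 0.00136), which did not hold on TPM (0.0865 and 0.0830 with pseudocounts of 1 and 0.1; the alternatives spanned 6.80e-05 to 0.0865). DCL1, the Dicer that cuts miRNAs from their precursors, had 60.9 ± 1.64 CPM in osino80 and 64.0 ± 2.41 CPM in WT. Its log2 fold change of -0.07 ± 0.03 did not pass (edgeR adjusted p = 0.0918); with WT replicate 3 left out it did (0.0426, the lowest of all alternatives, which reached 0.461). WAF1, which methylates the ends of miRNAs, did not pass, at -0.06 ± 0.09 on the log2 scale. Mature miRNAs, miR156 included, were not measured in these mRNA libraries.

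The AP2-type genes under miR172, the microRNA that SPL proteins switch on as plants age, moved in both directions. The test called 2 of the 4 higher and 1 lower, against 18.4% and 19.1% of all loci tested. The locus listed as IDS1 (LOC_Os03g60430) had 17.3, 15.5 and 14.9 CPM in osino80, against 11.0, 11.9 and 11.8 CPM in WT. It rose 1.37-fold, by 0.46 ± 0.07 on the log2 scale (edgeR adjusted p = 2.11e-08), with no overlap and in each of 17 alternatives; the reference table of rice genes places the name IDS1 on another chromosome. SNB, which controls the fate of the spikelet meristem, had 19.2 ± 0.769 CPM in osino80 and 17.2 ± 1.79 CPM in WT. Its log2 fold change was 0.15 ± 0.06 (edgeR adjusted p = 0.0470). That call was lost without osino80 replicate 2 (edgeR adjusted p = 0.125), osino80 replicate 3 (0.165), WT replicate 2 (0.399) or WT replicate 3 (0.111), and in 6 further alternatives, in a range of 0.00585 to 0.399. RSR1, a regulator of starch synthesis, averaged 377 ± 3.87 CPM in osino80 and 393 ± 2.75 CPM in WT (log2 fold change -0.06 ± 0.02, edgeR adjusted p = 0.00574); on TPM it did not pass. SHAT1, a gene of seed shattering, did not pass, at -0.01 ± 0.03 on the log2 scale.

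Of 12 genes known as targets or partners of rice SPL proteins 9 could be tested, of which 1 rose and 2 fell, 3 of 9 against 37.6% of all loci tested. GW7, a grain shape gene repressed by SPL16, had 58.4 ± 1.45 CPM in osino80 and 53.7 ± 1.68 CPM in WT. It rose by 0.12 ± 0.04 on the log2 scale (edgeR adjusted p = 0.00387). With WT replicate 2 left out the edgeR adjusted p was 0.0611, the highest of the alternatives, which began at 0.00305. WRKY45, a defence regulator that SPL14 can activate, fell to 16.6 ± 0.929 CPM in osino80, against 20.7 ± 1.85 CPM in WT (edgeR adjusted p = 8.09e-06). SLR1, the DELLA protein that binds SPL14, had 145 ± 1.73 CPM in osino80 and 152 ± 1.35 CPM in WT (log2 fold change -0.07 ± 0.02, edgeR adjusted p = 0.0125); on TPM it did not pass.

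Direct targets of SPL14 in the control of shoot form gave no call. TB1, which holds back tiller buds, had 4, 7 and 2 counts in osino80, against 8, 4 and 12 counts in WT, too few to be tested. DEP1, a panicle gene, did not pass, at -0.13 ± 0.15 on the log2 scale (edgeR adjusted p = 0.522). D53, the strigolactone repressor that binds SPL14, had 47.4 ± 1.02 CPM in osino80 and 49.7 ± 0.575 CPM in WT. All its osino80 libraries lay below all WT libraries in CPM and in TPM. Of all loci tested 45.7% did not overlap in CPM and 43.7% in TPM. The log2 fold change of D53, -0.07 ± 0.04, did not pass (edgeR adjusted p = 0.156).

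The tested loci numbered next to the members were also compared, with 2 on each side, 40 in all. Of these 8 passed as higher and 10 as lower, 45% against 37.6% of all loci tested. A change of at least 2-fold was found at 2 of the 40, a share near the 3.76% of all loci tested. LOC_Os06g49000, next to SPL12, had 649, 658 and 755 counts in osino80, against 314, 364 and 267 counts in WT (log2 fold change 1.22 ± 0.10, edgeR adjusted p = 4.49e-27). LOC_Os08g41960, next to SPL16, had 469, 368 and 470 counts in osino80, against 100, 96 and 85 counts in WT (log2 fold change 2.31 ± 0.15, edgeR adjusted p = 1.03e-42). In both, the groups lay far apart. The strand setting of the counting is not given in the sources used here, so reads that run over from a neighbouring gene could not be told from a member's own; their part in the rise of SPL12 was not tested.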

How the data were processed

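RNA-seq was made from 3 osino80 and 3 WT libraries with a stranded mRNA kit, per the labels' protocols. The authors deposited raw counts per locus and TPM values per locus, made with featureCounts, HISAT2, SAMtools and cutadapt, per the submitters' processing notes. Versions, genome build, annotation, strand setting and the TPM calculation were not given in the sources used here. In each library 82.4% to 83.7% of counts between 1 and 20 were even; whether each fragment was counted by both its reads was not tested, and halved counts were run as an alternative.

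The test on counts was that of edgeR 4.0.16 under R 4.3.3 (filterByExpr, TMM, glmQLFit with robust=TRUE, glmQLFTest, two-sided, all 6 libraries, Benjamini-Hochberg adjustment over 24914 loci). The script was tested on simulated data with 2-fold changes, which does not cover the smaller changes of the members. A standard error is the size of the log2 fold change divided by the square root of F, and 95% intervals use the test's degrees of freedom. Median-of-ratios and upper-quartile scaling, other filters, DESeq2 1.42.0, limma 3.58.1 (voom, and log2 of TPM plus a pseudocount of 1 or 0.1), robust=FALSE, a replicate block and each library left out were alternatives. The replicate numbers did not pair the libraries (correlations of deviations 0.012, -0.017 and 0.0098). Library pairs of a genotype differed by 3.59 to 4.02 times the sampling variance of independent counts (chi-square per degree of freedom). All libraries were therefore kept. If each fragment was counted by both its reads, these multiples are too high.

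The members and lists were chosen with earlier results of these data known. Gene names follow published locus numbers: the reference table (assembly ASM3414082v1) holds 8 of the 10 member names, 6 once and on the expected chromosome, and 2 (SPL7, SPL11) also for an unrelated gene; SPL3 and SPL17 were not matched. The names SPL18 and IDS1 are in it only on other chromosomes, and whether these entries are the same genes was not checked. Named were all members, every gene of the other lists that passed, and a few that did not; neighbours only past 2-fold. No coordinates are given, as the files name no build.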

Additional observations from a re-analysis of the deposited data

How the results depend on the processing

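SPL2 passed as higher in all 17 alternatives; among members 6 of 10 kept both direction and side of the threshold in all that could be computed, and none gained a call (SPL7 could not be tested with halved counts). Members called higher numbered 1 in place of 2 without the low-count filter and on log2(TPM + 1) and log2(TPM + 0.1), and 1 to 2 with a library left out. Members called lower numbered 0 in place of 1 on both TPM scales, and 0 to 1 with a library left out. The replicate block left 2 members higher and 1 lower, with 4556 loci higher and 4773 lower among all tested, against 4596 and 4767 without it, and changed no call among the 39 named genes tested. Over all loci every alternative stayed within 1.5 times these counts, the lowest being 3767 higher and 3643 lower on log2(TPM + 1). Signs turned only for genes that did not pass: SPL13 at 0.0088 with limma voom, 0.0048 and 0.011 on TPM with pseudocounts of 1 and 0.1, and from -0.14 to 0.13 with a library left out (above 0 without osino80 replicate 2 or WT replicate 2). With a library left out SPL7 ranged from -0.51 to 0.21 (above 0 without osino80 replicate 1 or WT replicate 2), SPL6 from -0.00067 to 0.048 (below 0 without WT replicate 3) and SHAT1 from -0.022 to 0.0020 (above 0 without osino80 replicate 2). SPL9 passed as lower only with WT replicate 3 left out (edgeR adjusted p = 0.0469; others up to 0.733). The causes were not tested. SPL7, SPL14, SPL16 and SPL17 had under 100 counts in every library; the part of depth in their missed calls was not tested.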
